A study of Homo sapiens with 20 samples.

Results

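T cell receptor variable (V) segments were examined in WT Jurkat T lymphoblasts and in their CD47-deficient somatic mutant JinB8 (CD47-), by mRNA sequencing of 20 libraries, 10 from each line. The segments were all genes of the table named TRAV, TRAJ, TRBV, TRBJ, TRDV, TRDJ, TRGV or TRGJ with a number, and those with at least 10 counts summed over the 20 libraries were described. That left 38 of 216 segments, of 60719 genes in the table. All 38 were V segments (13 TRAV, 15 TRBV and 10 TRGV). Of the 80 joining (J) segments, TRAJ3 and TRBJ1-6 had 1 count each and 78 had none. The annotated J exons spanned 46 to 69 bases, and reads were 125 bases long.

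Jurkat is a human T cell leukemia line, and JinB8 is 1 mutant line derived from it, so CD47 status and any other difference between these lines cannot be told apart. CD47 mRNA was detected in both lines, at 316 ± 42.1 counts scaled to library size (CPM) in WT (SD, n = 10 libraries) and 147 ± 12.6 CPM in CD47- cells. In each line, cells were left untreated (UT, 1 h), or were kept for 1, 3 and 6 h on plates coated with antibodies to CD3 and CD28 (CD3_CD28), on such plates with thrombospondin-1 at 1 μg/mL (CD3_CD28_TSP1), or with thrombospondin-1 alone (TSP1). All cells were in serum-free HITES medium, and each condition had 1 library per line. There was no untreated library at 3 or 6 h, so time on the plate cannot be told apart from time in that medium. Libraries held 20483642 to 31737616 counts in WT and 16107921 to 28525524 in CD47- cells. All 11 T cell markers examined were detected in both lines, with mean levels of 18.0 to 892 CPM in WT cells, against 21.8 to 618 CPM in the CD47- line. Markers of other cells were lower in sum. The 5 B cell markers used summed to 37.97 to 57.0 CPM over the WT libraries and 6.52 to 13.98 CPM over the CD47- libraries, the 4 NK cell markers to 1.25 to 9.17 and 5.96 to 12.4 CPM, the 3 fibroblast markers to 1.32 to 5.70 and 3.22 to 7.52 CPM, and the 5 myeloid markers to 0.399 to 1.62 and 0.351 to 1.86 CPM.

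A T cell builds each receptor chain by cutting and joining DNA: 1 V segment is joined to a J segment, with a D segment between them in the beta and delta chains, and the joined exon is spliced to a constant (C) exon. The RAG1 and RAG2 recombinase makes the cuts at a recombination signal beside each segment, a heptamer and a nonamer kept apart by a spacer. The deletion that brings a V segment to a J segment removes what lay between them, while V segments upstream of the chosen one stay on the chromosome. A V segment can therefore give RNA as the first part of a joined receptor message, or as an unjoined (germline) transcript from its own promoter. TRBV12-3 and TRAV8-4 are known as the V segments of the alpha beta receptor that Jurkat cells carry. In counts summed over a whole segment these kinds of RNA were not separated.

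The signals beside the segments with the most counts show what the recombinase would meet at each unjoined V. The 39 bases that follow each V exon in GRCh38 are printed 5′ to 3′ on the coding strand, with the first 7 bases (the place of the heptamer) and the last 9 (the place of the nonamer after a spacer of 23 bases) in capitals.
TRAV8-4 (chr14:21895031-21895069, plus strand): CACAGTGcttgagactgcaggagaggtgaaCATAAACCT
TRAV17 (chr14:21998169-21998207, plus strand): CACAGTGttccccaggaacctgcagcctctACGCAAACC
TRAV18 (chr14:22003674-22003712, plus strand): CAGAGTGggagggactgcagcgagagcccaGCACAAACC
TRAV19 (chr14:22008182-22008220, plus strand): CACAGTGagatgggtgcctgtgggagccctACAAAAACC
TRBV12-3 (chr7:142560932-142560970, plus strand): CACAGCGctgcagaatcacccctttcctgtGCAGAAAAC
TRBV28 (chr7:142721161-142721199, plus strand): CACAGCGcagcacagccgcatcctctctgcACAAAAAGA
TRBV7-2 (chr7:142353359-142353397, plus strand): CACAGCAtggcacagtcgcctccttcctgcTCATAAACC
TRGV3 (chr7:38358473-38358511, minus strand): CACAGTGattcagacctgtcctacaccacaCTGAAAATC
TRGV8 (chr7:38330304-38330342, minus strand): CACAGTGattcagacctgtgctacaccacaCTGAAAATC
The heptamer CACAGTG, read only at this position and on the coding strand, stood beside 21 of the 38 described segments (55.3%) and 58 of all 136 V segments (42.6%). Its first 3 letters CAC stood beside 89.5% of the 38 and 88.2% of all V segments. TRBV12-3, the segment with the most counts of all, has CACAGCG there, and TRAV18 has CAGAGTG. The windows of TRGV3 and TRGV8 share all letters in capitals and differ within the 23 bases between them. The last 9 bases mark a fixed place, and spacers of other lengths were not examined. In TRAV8-4 those 9 bases match the nonamer ACAAAAACC at only 4 letters, so they need not be its nonamer. A match is a description of these letters and not a measure of use.

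TRBV12-3 and TRAV8-4 held 95.7% of the 218975 counts of the 38 segments. TRBV12-3 (ENSG00000274752.1, chromosome 7 from 142560423 to 142560931, 2 exons) ranged from 480.45 to 602 CPM in WT with a median of 572, and from 166 to 368 CPM in CD47- cells with a median of 239.8. The lowest WT library lay above the highest CD47- library. In WT, TRBV12-3 took 98.9% of all TRBV counts (exact binomial 95% interval 98.8 to 98.9%), and in CD47- cells 97.6% (97.5 to 97.8%). These intervals cover counting error only. Over single libraries the share ran between 98.5 and 99.2% for WT and between 96.4 and 98.9% for CD47-. 

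TRAV8-4 (ENSG00000211790.2, chromosome 14 from 21894433 to 21895030, 2 exons) ranged from 44.5 to 106 CPM in WT with a median of 60.8, and from 5.71 to 10.6 CPM in CD47- cells with a median of 7.47. These ranges did not overlap either. It took 80.6% of TRAV counts in WT (80.0 to 81.1%) and 67.4% in CD47- cells (65.7 to 69.2%), with 75.1 to 87.1% over the WT libraries and 48.3 to 77.0% over the CD47- libraries. Per kilobase of exon, TRBV12-3 stood at 1352 ± 98.4 CPM in WT cells and 632 ± 163 CPM in the CD47- line, against 142 ± 44.2 and 16.5 ± 3.51 CPM per kilobase for TRAV8-4. The level of TRBV12-3 was thus above that of TRAV8-4 in either line, by more than the spread between libraries.

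TRBV12-3 has a near copy next to it, TRBV12-4, which differs at 14 of 409 aligned bases. In their V exon (298 bases) the 2 differ at 6 positions, counted from 1 at the first base of that exon: T5C, C35G, T38C, C92A, A96G and C100A, with the TRBV12-3 base first. The first 110 bases of the exon, which hold all 6 positions, are shown with those positions in capitals because they are the differences within the V exon by which reads of the 2 segments can be told apart.
TRBV12-3 (chr7:142560634-142560743, plus strand): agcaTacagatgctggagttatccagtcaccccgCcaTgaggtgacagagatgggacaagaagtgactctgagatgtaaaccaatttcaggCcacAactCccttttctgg
TRBV12-4 (chr7:142563948-142564057, plus strand): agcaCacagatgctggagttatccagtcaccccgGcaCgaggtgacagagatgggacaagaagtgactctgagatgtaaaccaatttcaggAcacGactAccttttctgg
RSEM gave TRBV12-4 only 4.56 counts over the WT libraries and 3.39 over the CD47- libraries. Summing both segments left the WT mean at 553 CPM and the CD47- mean at 258 CPM, the same as for TRBV12-3 alone to 3 digits.

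The other TRBV segments were far lower. After TRBV12-3 came TRBV28 with 604 counts in WT and 588 in CD47- cells, TRBV7-2 with 454 and 554, TRBV7-3 with 129 and 99, TRBV13 with 98 and 40, TRBV27 with 33 and 53, and TRBV7-4 with 14 and 48. TRBV28 stood at 1.47 to 3.51 CPM in WT cells, against 1.81 to 3.27 CPM in the CD47- line, and TRBV7-2 at 0.767 to 3.47 and 0.791 to 3.75 CPM, so the ranges over all times overlapped. Within a time TRBV7-2 did not overlap at 1 h, when it was higher in CD47- cells (2.90 to 3.75 CPM against 1.34 to 2.22), or at 6 h, when it was lower (0.791 to 1.54 against 2.31 to 3.47). Summed over all TRBV segments but TRBV12-3, the level was 6.25 ± 1.22 CPM in WT cells, against 6.18 ± 1.39 CPM in the CD47- line. Of the 15 TRBV segments described, 13 lie on chromosome 7 and 2 are orphons on chromosome 9 (TRBV20OR9-2 and TRBV26OR9-2), copies outside the locus that cannot be joined to the beta chain by the usual deletion. TRBV20OR9-2 had 10 counts in WT and 28 in CD47- cells, and TRBV26OR9-2 had 8 and 5.

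Counts in the alpha locus fell into 1 stretch. All 13 TRAV segments described lie within 161.6 kb of chromosome 14, from TRAV8-2 to TRAV19 (21846537 to 22008181), where they make up 13 of 16 annotated V segments. The 25 TRAV segments nearer to the constant gene TRAC, from TRAV20 to TRAV41, had 0 counts over all 20 libraries. A count of 0 allows a level of up to 0.0128 CPM over the WT libraries and 0.0124 CPM over the CD47- libraries (3 counts of the line's total). The 13 TRAV segments on the far side of the stretch had 4 counts in all, and the 3 TRDV segments had none. 

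**Figure D1:**
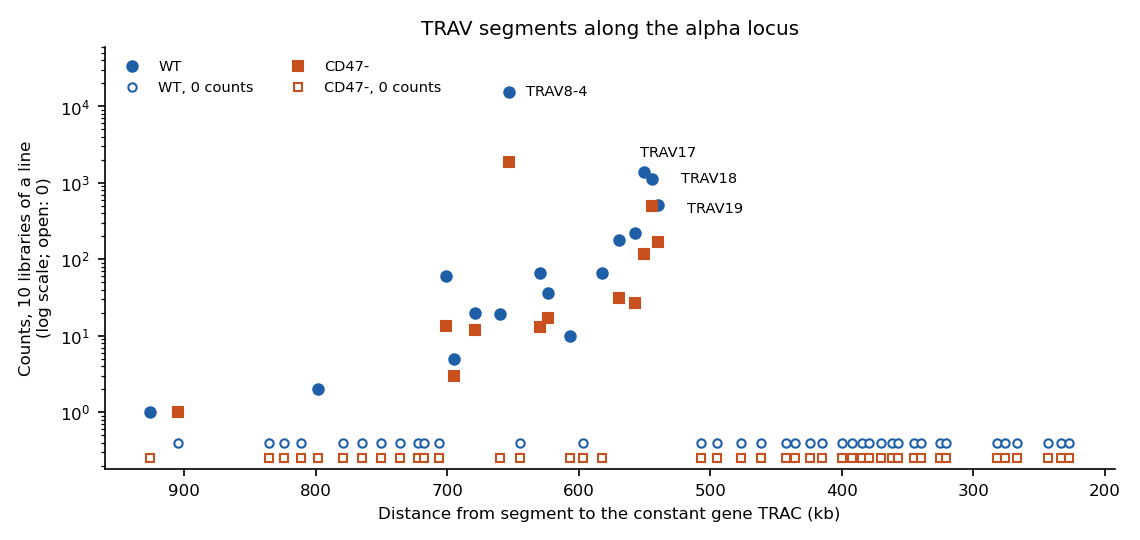
Counts of each TRAV segment, summed over the 10 libraries of a line, on a log scale against its distance in kilobases to the constant gene TRAC, with WT as circles and CD47- as squares. Open symbols at the bottom mark 0 counts. Counts above 2 lie between 540 and 701 kb from TRAC, and the 25 segments nearer than that show none.

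Within the stretch, TRAV8-4 stood apart and a second group sat at its TRAC side. TRAV17, TRAV18 and TRAV19, the last 3 segments before the empty part, had 1396, 1136 and 516 counts in WT and 119, 499 and 170 in CD47- cells. TRAV16 and TRAV8-6, just before them, had 218 and 180 counts in WT and 27 and 31 in CD47- cells. Each of the other TRAV segments had at most 66 counts in WT and 17 in CD47- cells. All 13 had more counts in WT than in CD47- cells, 3 of them with no count in CD47- cells. TRAV12-3 (66 counts in WT), TRAV12-2 (19) and TRAV9-2 (10) had none in CD47- cells. These 3 met the minimum of 10 counts through WT alone. Their side in that tally was set by this choice, so no difference between the lines is read from them. In TRAV8-4, TRAV17 and TRAV19 the heptamer printed above is the full CACAGTG, and in TRAV18 it is not. A relation between these letters and the counts was not tested.

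The gamma locus gave few counts, 1041 in WT and 838 in CD47- cells over 12 TRGV segments, 10 of which were described. Over all times, TRGV3 led in WT with 358 counts, followed by TRGV8 (229), TRGV5 (162), TRGV7 (86), TRGV9 (71) and TRGV4 (64.0). In CD47- cells the order was TRGV8 (262), TRGV3 (179), TRGV9 (123), TRGV5 (95), TRGV7 (67) and TRGV4 (46.2). The order of the leading pair changed with time. In WT, TRGV3 had more counts than TRGV8 at 1 h (179 against 44) and fewer at 6 h (63.7 against 115), and in CD47- cells it had more at 3 h only (67 against 54). Per kilobase of exon, TRGV3 was at 2.94 ± 1.27 CPM and TRGV8 at 2.01 ± 0.989 CPM in WT, which over all times did not differ beyond their spread. TRGV3 and TRGV5 share 94.0% of their bases, so counts could be split between them. The antisense gene TRG-AS1 (33.0 ± 10.2 CPM in WT, 23.9 ± 3.88 in CD47- cells) overlaps 7 of the 10, TRGV3, TRGV4, TRGV5 and TRGV7 among them. Since the strand setting of the counting is not given in the sources used here, reads from TRG-AS1 and from these 7 cannot be told apart. TRGV8 and TRGV9 lie outside it.

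For comparisons, all genes were tested in a fit of the lines and in a separate fit of time and activation. Each used edgeR's quasi-likelihood test and Benjamini-Hochberg adjusted p-values over the 16327 genes that passed a filter on low counts. Of the 38 segments, 11 passed that filter: TRAV8-4, TRAV16, TRAV17, TRAV18, TRAV19, TRBV12-3, TRBV28, TRBV7-2, TRBV7-3, TRGV3 and TRGV8. TRAV16 passed through its WT libraries (9 of 10 over the minimum, against 1 of 10 in CD47- cells). The other 27 averaged at most 0.791 CPM in a line and were not tested. Nothing in the labels says that libraries came from separate cultures, so p-values measure only the spread between these libraries.

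Between the lines, 7 of the 11 tested segments were lower in CD47- cells and 0 were higher. Over all genes tested, 20.6% were lower and 19.8% higher. TRAV16 is among the 7 although it entered the test through the line in which it was high, and without it 6 of 10 were lower and 0 higher. The other 6 were over the minimum in all 10 WT libraries and in 7 to 10 CD47- libraries. The median log2 change was −1.10 over the 11 segments, −1.08 without TRAV16 and −0.01 over all genes. None of the 11 was higher in CD47- cells by DESeq2 or limma voom either, nor at an unadjusted p under 0.05, which 7 of them and 48.2% of all genes passed. In the fit without the filter on low counts 0 of the 38 were called higher, and TRGV10 (6 counts in WT and 21 in CD47- cells, log2 change 1.61, adjusted p = 0.0702 by edgeR) and TRBV7-4 (1.61, adjusted p = 0.0955) had an unadjusted p under 0.05. No share of all genes is given here for that fit. In bulk RNA, fewer cells with a transcript and less of it per cell cannot be told apart. Of the B cell markers, CD79A, a chain of the B cell receptor, also fell in CD47- cells, from a mean of 42.1 to 6.74 CPM, as did IGHM, from 1.98 to 0.662 CPM. MS4A1 and PAX5 had means of at most 0.124 CPM in either line, and CD79B was at 1.89 and 2.47 CPM.

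The 4 alpha segments tested beside TRAV16 were all lower in CD47- cells. TRAV8-4 fell by 3.10 on the log2 scale (± 0.17 SE, adjusted p = 1.02e-12 by edgeR), and it was lower in CD47- cells in all 10 pairs of libraries of the same treatment and time. TRAV17 stood at 2.39 to 9.54 CPM in WT (median 5.83) and 0.122 to 0.912 CPM in CD47- cells (median 0.483), with no overlap. It fell by 3.62 (± 0.30 SE, adjusted p = 1.33e-09 by edgeR). TRAV16 stood at 0.239 to 1.54 CPM in WT and 0 to 0.415 CPM in CD47- cells, where 3 libraries had no count. Since the filter kept it for its WT libraries, its difference is given from the fit without the filter on low counts, as −3.01 (adjusted p = 3.71e-05 by edgeR). TRAV18 and TRAV19 fell less. TRAV18 went from 2.33 to 8.05 CPM in WT (median 4.55) to 0.703 to 3.87 CPM in CD47- cells (median 1.83), which overlapped (log2 change −1.28 ± 0.28 SE, adjusted p = 8.44e-04 by edgeR). TRAV19 went from 0.878 to 3.89 CPM to 0.122 to 1.14 CPM, also overlapping (log2 change −1.67 ± 0.33 SE, adjusted p = 2.77e-04 by edgeR). Both were lower in all 10 pairs. Over the 4 pairs of libraries without activation alone, the calls of TRAV16 (in the filtered fit), TRAV18 and TRAV19 were lost, with log2 changes of −1.63, −0.83 and −1.12 (edgeR adjusted p = 0.145, 0.229 and 0.0651, against a highest value of 0.00213 when single libraries were left out).

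Of the beta and gamma segments that passed the filter, TRBV12-3 and TRGV3 differed between the lines. Without the filter, edgeR also called TRBV29-1 (−3.06, adjusted p = 0.0021), TRBV13 (−1.26, 0.0205) and TRGV1 (−2.26, 0.0492) lower in CD47- cells. TRBV29-1 and TRGV1 had 1 count each there, so they met the minimum of 10 counts mostly through WT. TRBV12-3 fell by 1.10 (± 0.12 SE, adjusted p = 9.30e-08 by edgeR) and was lower in all 10 pairs. TRGV3 went from 0.702 to 2.76 CPM in WT to 0.326 to 1.5001 CPM in CD47- cells, overlapping (log2 change −1.06 ± 0.28 SE, adjusted p = 0.00413 by edgeR), with 9 of 10 pairs lower. Its call was lost in the 6 activated pairs alone (−1.12, edgeR adjusted p = 0.0739) and in the 4 others (−0.92, 0.0659). TRG-AS1, which overlaps it, also fell, by 0.47 (± 0.15 SE, adjusted p = 0.0186 by edgeR), and its part in the value of TRGV3 was not tested. TRBV28 (−0.06, SE 0.16), TRBV7-2 (0.23, SE 0.28), TRBV7-3 (−0.47, SE 0.35) and TRGV8 (0.19, SE 0.30) were not called. With single libraries left out, the value ran from 0.12 to 0.37 for TRBV7-2, −0.60 to −0.27 for TRBV7-3 and 0.089 to 0.34 for TRGV8.

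**Figure D2:**
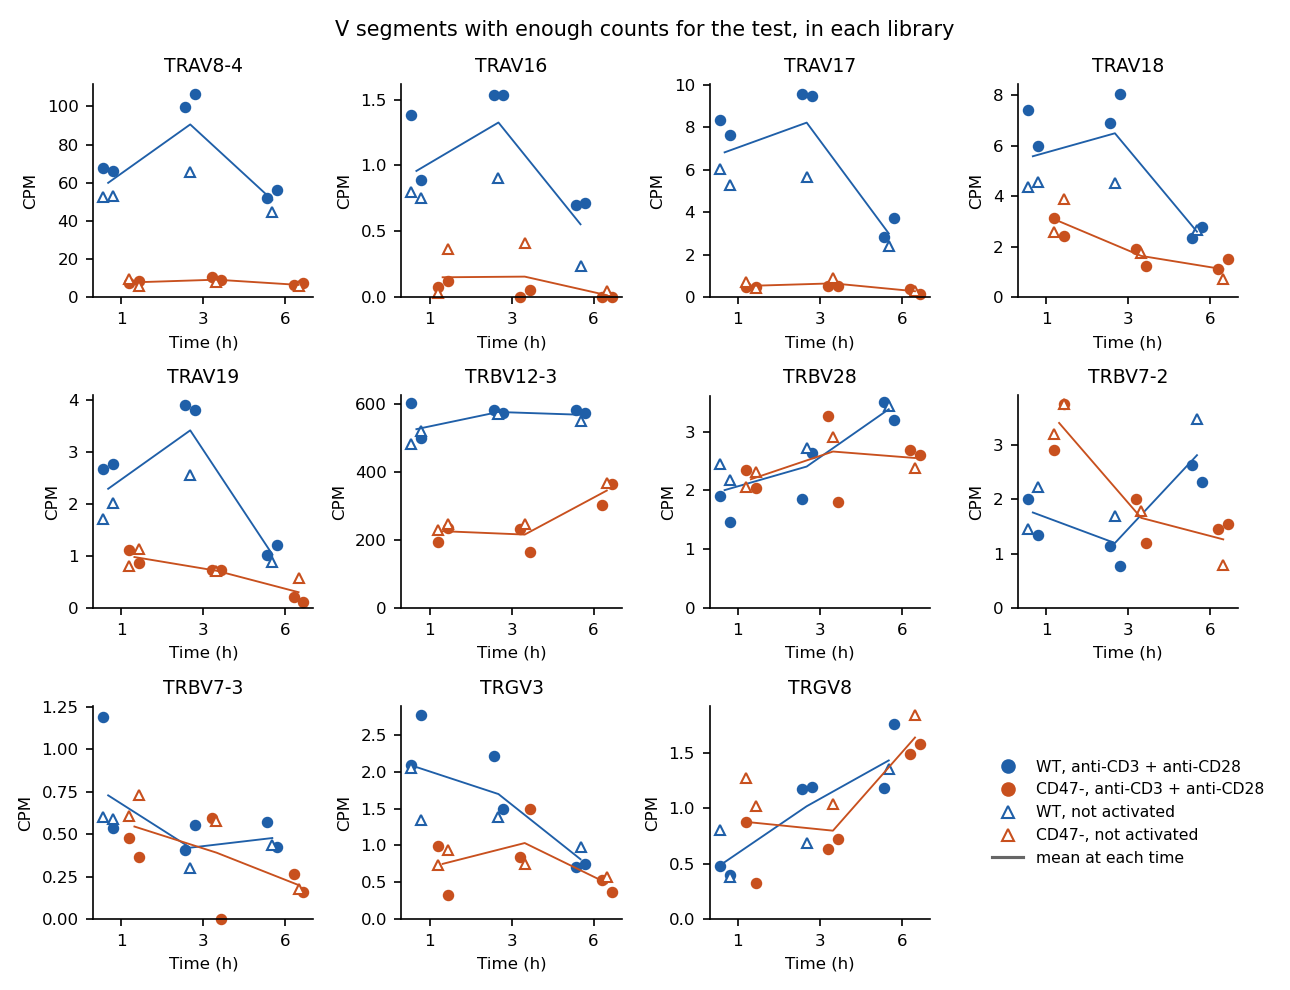
CPM of the 11 tested V segments in each of the 20 libraries at 1, 3 and 6 h, with WT in blue and CD47- in orange, activated libraries as filled circles, libraries without activation as open triangles, and lines through the mean at each time. TRAV8-4, TRAV17 and TRBV12-3 show no overlap between the lines, and TRBV7-2 moves in opposite directions from 1 to 6 h.

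Time on the plate moved more segments than activation did. From 1 to 6 h, 3 of the 11 tested segments rose and 5 fell in WT, where 26.5% of all genes rose and 26.1% fell. In CD47- cells 2 rose and 4 fell, where 25.9% of all genes rose and 27.2% fell. These shares of all genes are large, so the number of segments called says little about V segments as such. TRAV17, TRAV18 and TRAV19 fell together in either line. In WT, TRAV17 went from 5.29, 6.01, 7.62 and 8.35 CPM at 1 h to 2.39, 2.85 and 3.75 CPM at 6 h. That was a log2 change of −1.27 ± 0.18 SE (adjusted p = 1.5e-05 by edgeR), with no overlap. TRAV18 fell by 1.14 in WT (± 0.23 SE) and by 1.44 in CD47- cells (± 0.26 SE). In CD47- cells it went from 2.41, 2.59, 3.14 and 3.87 CPM at 1 h to 0.703, 1.10 and 1.503 CPM at 6 h. TRAV19 fell by 1.22 in WT (± 0.26 SE) and by 1.66 in CD47- cells (± 0.33 SE), and TRAV17 by 0.88 in CD47- cells (± 0.32 SE, adjusted p = 0.0322 by edgeR). The CD47- value of TRAV19 became −2.49 without TSP1 at 6 h, which stood at 0.571 CPM beside 0.122 and 0.220 CPM in the other CD47- libraries of that time, and it was called in all 20 fits that left out 1 library. That of TRAV17 became −1.32 without CD3_CD28 at 6 h and −0.58 without CD3_CD28_TSP1 at 6 h. The CD47- call of TRAV17 was lost in 5 of the 20 fits that left out 1 library, namely UT, CD3_CD28 and CD3_CD28_TSP1 at 1 h and CD3_CD28_TSP1 and TSP1 at 6 h of the CD47- line, with adjusted p of up to 0.2. It was also lost with DESeq2, without the filter on low counts and with a term for each treatment (adjusted p = 0.0602, 0.0825 and 0.0856).

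TRAV8-4 followed another course in WT, up at 3 h and down at 6 h. Its WT libraries were at 52.7 (UT), 53.0 (TSP1), 66.0 (CD3_CD28_TSP1) and 67.8 CPM (CD3_CD28) at 1 h, at 65.4, 106 and 99.8 CPM at 3 h, and at 44.5, 56.2 and 52.0 CPM at 6 h. From 1 to 3 h it rose by 0.51 on the log2 scale (± 0.12 SE, adjusted p = 0.00255 by edgeR), with the call kept in all 20 fits that left out 1 library. In WT 2 of 11 segments rose at 3 h and 0 fell, where 17.7% of all genes rose and 18% fell. From 1 to 6 h TRAV8-4 fell by 0.30 in WT (± 0.12 SE, adjusted p = 0.044 by edgeR). That call was lost in 11 of the 20 fits that left out 1 library, with adjusted p of up to 0.127: without UT, CD3_CD28 or TSP1 at 1 h, CD3_CD28 or TSP1 at 3 h or any of the 3 libraries at 6 h of WT, and without CD3_CD28_TSP1 at 1 h or CD3_CD28 or CD3_CD28_TSP1 at 6 h of CD47- cells. In CD47- cells the change was −0.31 (± 0.14 SE, adjusted p = 0.0784 by edgeR), and the difference between the lines was −0.01 (± 0.18 SE, adjusted p = 0.974 by edgeR). Without the filter on low counts the fall in CD47- cells was called (−0.32, edgeR adjusted p = 0.0398). At 3 h the CD47- value was 0.20 (± 0.14 SE, adjusted p = 0.28 by edgeR), not called but on the same side of 0 as in WT.

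TRBV12-3 rose with time in CD47- cells, where it went from 195, 228, 234 and 245 CPM at 1 h to 303, 364 and 368 CPM at 6 h, with no overlap. That was a log2 change of 0.64 ± 0.10 SE (adjusted p = 4.9e-05 by edgeR). In WT it went from 480.45, 499, 519 and 602 CPM to 548, 573 and 582 CPM (log2 change 0.10 ± 0.10 SE, adjusted p = 0.454 by edgeR). The difference between the lines in this change was 0.55 (± 0.15 SE, adjusted p = 0.018 by edgeR). It was lost when CD3_CD28_TSP1 at 6 h of CD47- cells was left out (0.47, edgeR adjusted p = 0.0594, over alternatives 2.73e-04 to 0.0594). The mean log2 difference between paired libraries of CD47- and WT cells (CPM plus 0.5) was −1.22 at 1 h (4 pairs), −1.43 at 3 h (3 pairs) and −0.72 at 6 h (3 pairs).

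TRBV7-2 moved in opposite directions from 1 to 6 h. In WT it stood at 1.34, 1.45, 2.00 and 2.22 CPM at 1 h and 2.31, 2.63 and 3.47 CPM at 6 h (log2 change 0.73 ± 0.25 SE, adjusted p = 0.0213 by edgeR). In CD47- cells it stood at 2.90, 3.19, 3.75 and 3.75 CPM at 1 h and 0.791, 1.45 and 1.54 CPM at 6 h (log2 change −1.45 ± 0.27 SE, adjusted p = 1.71e-04 by edgeR). The difference between the lines was −2.18 (± 0.37 SE, adjusted p = 5.39e-04 by edgeR), and it was called in all 20 fits that left out 1 library. Over all genes, 6.46% had a change from 1 to 6 h that was higher in CD47- cells and 9.93% one that was lower, against 1 segment each among the 11. TRBV7-2 was already lower at 3 h in CD47- cells (−1.04 ± 0.26 SE, adjusted p = 0.00417 by edgeR), as was TRAV18 (−0.87 ± 0.25 SE, adjusted p = 0.0109 by edgeR). In WT the 3 h libraries of TRBV7-2 stood at 0.767, 1.13 and 1.68 CPM, a change of −0.51 (± 0.28 SE, adjusted p = 0.161 by edgeR), so its value at 3 h was on the same side of 0 in both lines. These were the 2 of 11 segments lower at 3 h there, with 0 higher, where 19.7% of all genes were lower and 17.5% higher. The rise of TRBV7-2 in WT was lost without UT or CD3_CD28_TSP1 at 1 h or CD3_CD28 or TSP1 at 6 h of WT (adjusted p of up to 0.0922), and in a fit with a term for each treatment (0.61, edgeR adjusted p = 0.066). Its nearest relative TRBV7-3 shares 89.2% of its bases. TRBV7-3 changed by −0.67 in WT (± 0.48 SE) and −1.30 in CD47- cells (± 0.58 SE), neither of which was called.

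Among the gamma segments, TRGV8 rose in either line and TRGV3 fell in WT. TRGV8 went from 0.378, 0.401, 0.477 and 0.802 CPM at 1 h to 1.185, 1.36 and 1.76 CPM at 6 h in WT, with no overlap (log2 change 1.47 ± 0.33 SE, adjusted p = 0.00122 by edgeR). In CD47- cells it went from 0.326, 0.874, 1.02 and 1.28 CPM to 1.49, 1.58 and 1.85 CPM (log2 change 1.05 ± 0.31 SE, adjusted p = 0.00848 by edgeR). At 3 h it was 0.96 higher in WT (± 0.35 SE, adjusted p = 0.0412 by edgeR), a call lost in 7 of 20 fits that left out 1 library (CD3_CD28, CD3_CD28_TSP1 or TSP1 at 1 h, CD3_CD28 or CD3_CD28_TSP1 at 3 h, or TSP1 at 6 h of WT, or CD3_CD28 at 6 h of CD47- cells) and with limma voom or without the filter on low counts (adjusted p = 0.0633 and 0.0719). TRGV3 went from 1.34, 2.05, 2.09 and 2.76 CPM at 1 h to 0.702, 0.750 and 0.984 CPM at 6 h in WT. Its log2 change was −1.35 (± 0.35 SE, adjusted p = 0.00308 by edgeR). In CD47- cells it was −0.61 (± 0.40 SE, adjusted p = 0.216 by edgeR), and the lines differed in this change by 0.74 (± 0.54 SE, adjusted p = 0.401 by edgeR). TRG-AS1 fell over the same time in WT by 0.82 (± 0.12 SE, adjusted p = 2.1e-05 by edgeR), from a mean of 35.6 to 20.6 CPM. Its part in the fall of TRGV3 was not tested. TRBV28 rose in WT by 0.81 (± 0.20 SE, adjusted p = 0.00228 by edgeR), from 1.47, 1.91, 2.18 and 2.45 CPM at 1 h to 3.19, 3.43 and 3.51 CPM at 6 h. In CD47- cells it changed by 0.22 (± 0.20 SE).

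**Figure D3:**
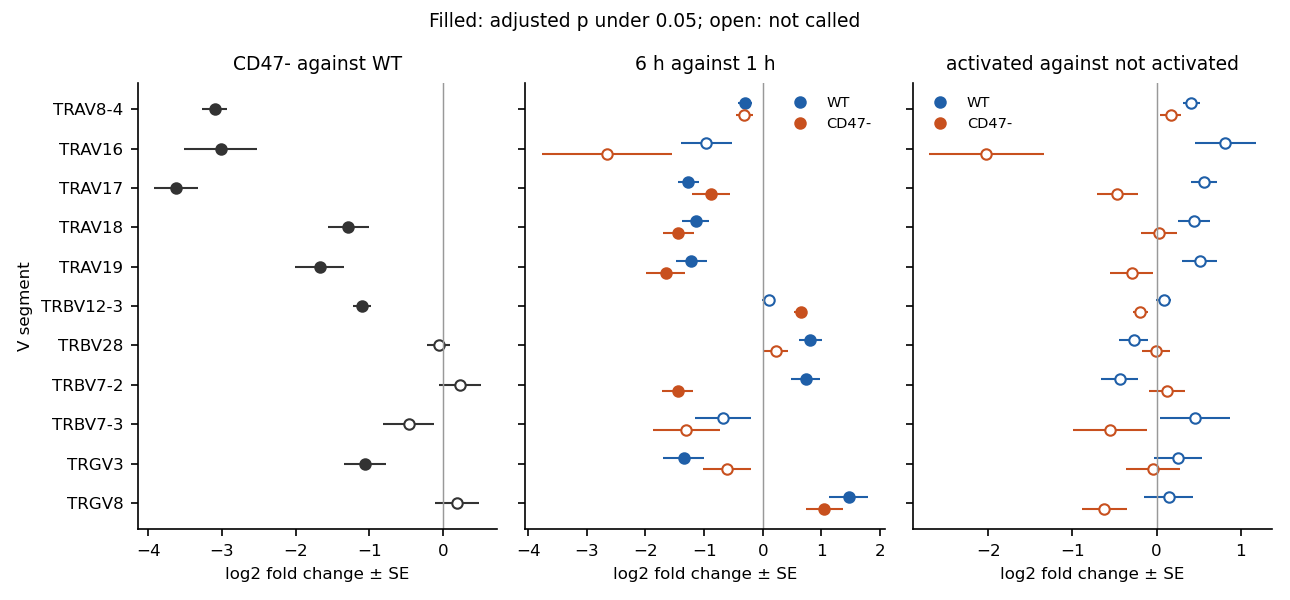
Log2 fold change with its SE of the 11 tested V segments between the lines (left), from 1 to 6 h in each line (middle) and with activation in each line (right), all from the filtered fits. Filled points have an edgeR adjusted p under 0.05 and open points do not. Points left of 0 are lower in CD47- cells, at 6 h or with activation, and no point of the activation panel is filled.

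Antibodies to CD3 and CD28 changed 0 of the 11 segments in either line by edgeR. In WT 0.355% of all genes rose and 0.0429% fell, and in CD47- cells 0% rose and 0% fell. At an unadjusted p under 0.05, 5 of the 11 passed in WT, where 7.26% of all genes did, and 3 in CD47- cells, where 2.3% of all genes did. TRAV16, which the filter kept for its WT libraries, is among the 5 and among the 3, so both counts depend in part on that choice. DESeq2 called 2 segments in WT and limma voom 1, and both called 0 in CD47- cells. The shares of all genes above are those of edgeR, and none is given here for these other methods. The 5 of WT were the alpha segments TRAV8-4, TRAV16, TRAV17, TRAV18 and TRAV19. At each of the 3 times, every activated WT library was above every WT library without activation for TRAV8-4, TRAV16, TRAV17 and TRAV19, and at 2 of the 3 times for TRAV18, TRBV12-3 and TRGV3. At 3 and 6 h that is 2 libraries against 1, the library with TSP1 alone. The reverse order, every activated library below, held in WT at 2 times for TRBV28 and TRBV7-2 and at 1 for TRGV3. No share of all genes is given here for these orders, so no response to activation is read from them. TRAV8-4 was 0.41 higher with activation on the log2 scale (± 0.10 SE, adjusted p = 0.116 by edgeR). DESeq2 gave it an adjusted p of 0.0136, limma voom 0.00986 and edgeR without the filter on low counts 6.73e-04, and over all 26 alternatives the range was 6.73e-04 to 0.945. Leaving out the UT library of CD47- cells, which is no part of this contrast but of the fit, gave 0.0133. TRAV17 was 0.57 higher (± 0.15 SE, adjusted p = 0.187 by edgeR, over alternatives 0.0329 to 0.947) and TRAV19 0.51 higher (± 0.21 SE, adjusted p = 0.594 by edgeR). In WT at 3 h, TRAV17 stood at 9.54 and 9.46 CPM in the activated libraries and at 5.66 CPM with TSP1 alone, and at 6 h at 2.85 and 3.75 against 2.39 CPM.

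In CD47- cells every activated library was above the others at 2 of the 3 times for TRAV8-4, at 1 for TRAV18, TRAV19, TRBV28, TRBV7-2 and TRGV3, and at 0 for the other 5 segments. Every activated library was below the others at all 3 times for TRGV8, at 2 for TRAV16 and TRBV12-3, and at 1 for TRAV17, TRAV19, TRBV7-3 and TRGV3. At 3 and 6 h this again sets 2 libraries against 1. No share of all genes is given here for these orders either, and no response is read from them. TRAV8-4 was at 7.23 and 8.32 CPM with activation and 5.78 and 9.61 CPM without it at 1 h, at 10.6 and 9.10 against 7.71 CPM at 3 h, and at 6.24 and 7.23 against 5.71 CPM at 6 h. Its change was 0.17 (± 0.12 SE, adjusted p = 0.987 by edgeR). The smallest p-values there belonged to TRAV16, TRGV8 and TRBV12-3. TRAV16 had at most 0.122 CPM in the 6 activated CD47- libraries, 3 of them at 0, and its fitted change was −2.02 (edgeR adjusted p = 0.987), or −1.09 without the TSP1 library at 3 h. TRGV8 was 0.62 lower (± 0.27 SE) and TRBV12-3 0.19 lower (± 0.09 SE), with the same adjusted p of 0.987. No segment of the 11 differed between the lines in its response to activation by edgeR, DESeq2 or limma voom. At an unadjusted p under 0.05, 4 of the 11 and 4.35% of all genes passed. TRAV16, which the filter kept for its WT libraries, is among the 4, so this count depends in part on that choice. Over all genes, 0% differed with a higher and 0.00612% with a lower response in CD47- cells. The smallest p-values were those of TRAV16 (−2.84 ± 0.77 SE, adjusted p = 0.685 by edgeR), TRAV17 (−1.03, SE 0.29, 0.687) and TRAV19 (−0.81, SE 0.33, 0.934). The value of TRAV19 ran from −0.98 to −0.48 with single libraries left out. TRAV16 was called only without the filter on low counts (adjusted p = 0.0135, over alternatives 0.0135 to 1).

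The constant genes give the other end of a joined receptor message. TRAC was at 122 to 300.3 CPM in WT (median 161) and 14.98 to 28.6 CPM in CD47- cells (median 22.9) (log2 change −3.08 ± 0.18 SE, adjusted p = 4.57e-12 by edgeR) beside −3.10 for TRAV8-4. For every 100 TRAC counts there were 36.3 ± 1.58 TRAV8-4 counts in WT and 36.6 ± 8.17 in CD47- cells (SD, n = 10 each, ratio not corrected for length and not tested). In WT the ratio stayed between 33.3 and 38.9 in all libraries while TRAV8-4 itself ran from 44.5 to 106 CPM. In CD47- cells, where counts are fewer, it ran from 26.3 to 51.6. TRAV18 had 2.66 ± 0.649 counts per 100 TRAC counts in WT and 9.11 ± 3.80 in CD47- cells, with ranges of 1.65 to 3.64 and 4.69 to 17.6 that did not overlap. TRAV19 had 1.177 ± 0.308 and 3.14 ± 1.37, with ranges of 0.714 to 1.58 and 0.787 to 5.19 that overlapped. TRAV17 had 3.25 ± 0.864 per 100 TRAC counts in WT and 2.20 ± 0.745 in CD47- cells, lower in the mean and overlapping. By time its means were 4.08, 3.21 and 2.19 at 1, 3 and 6 h in WT and 2.19, 2.70 and 1.72 in CD47- cells.

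TRBC1 was at 723 to 1086 CPM in WT cells, against 332 to 701 CPM in the CD47- line (log2 change −0.80 ± 0.12 SE, adjusted p = 1.78e-05 by edgeR) beside −1.10 for TRBV12-3. From 1 to 6 h it rose in CD47- cells by 0.65 (± 0.09 SE, adjusted p = 1.18e-05 by edgeR) and changed by 0.04 in WT (± 0.09 SE, adjusted p = 0.768 by edgeR), beside 0.64 and 0.10 for TRBV12-3. TRBC2 rose in both lines over that time, from a mean of 76.3 to 221 CPM in WT (log2 change 1.51 ± 0.08 SE, adjusted p = 1.61e-10 by edgeR) and from 60.8 to 153 CPM in CD47- cells (1.33 ± 0.08 SE, adjusted p = 6.31e-10 by edgeR). There were 62.4 ± 5.07 TRBV12-3 counts per 100 TRBC1 counts in WT and 50.5 ± 4.54 in CD47- cells. TRBC1 and TRBC2 are close copies, so how their counts were split is uncertain.

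**Figure D4:**
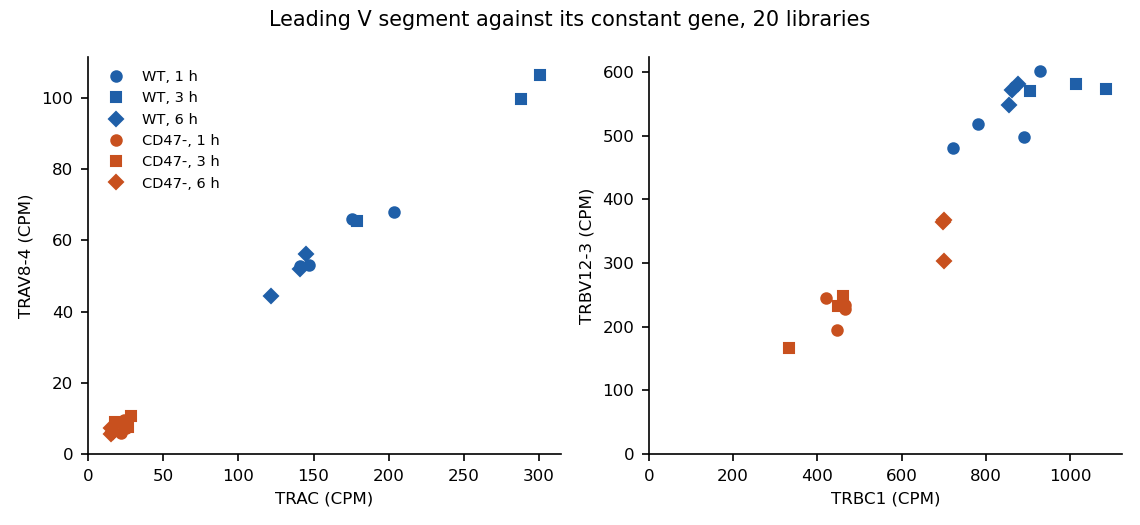
CPM of TRAV8-4 against TRAC (left) and of TRBV12-3 against TRBC1 (right) in the 20 libraries, with WT in blue, CD47- in orange and a symbol for each time. WT libraries of TRAV8-4 lie near 1 line from 44.5 to 106 CPM, and CD47- libraries of TRBV12-3 at 6 h lie above those at 1 and 3 h.

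Over the 20 libraries, after the mean of each line was taken away, the genes most like TRBV12-3 by Pearson's r of log2(CPM + 0.5) were HDDC2 (0.92), ZNF232 (0.917), C1orf43 (0.917), HAX1 (0.917) and the receptor chain CD3D (0.911). TRBC1 was the tenth in that order, at 0.896. Those most like TRAV8-4 were PHLDB1 (0.908), VASP (0.892), PDCD1 (0.891), VSIR (0.891) and HIC1 (0.888), and TRAC had r = 0.833. These libraries share time points and treatments, so r describes these data and carries no p. Among the tested segments themselves, r was highest for TRAV17 with TRAV19 (0.848) and TRAV18 with TRAV19 (0.819), while TRAV17 with TRAV8-4 had 0.717, and TRBV28 with TRGV3 had −0.687.

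Lists of other genes of the receptor and its recombination were compared in the same fits, where 19.8% of all genes were higher and 20.6% lower in CD47- cells. Of 10 tested receptor chains, PTCRA (the surrogate alpha chain), TRAC and TRBC1 were lower and CD3E and CD3G higher in CD47- cells, with a median of −0.02 beside −0.01 over all genes. Of 14 recombination and end-joining genes, RAG1, RAG2, HMGB1 and HMGB2 were lower and the polymerases POLL and POLM higher (median −0.06). RAG2 stood at 63.6 ± 24.4 CPM in WT cells, against 3.46 ± 0.761 CPM in the CD47- line. Of 16 factors that bind receptor enhancers or promoters, ETS1, GATA3, RUNX3, STAT5A and STAT5B were higher and CBFB was lower (median −0.01). STAT5A stood at 19.7 ± 3.36 and 107 ± 23.9 CPM. Of 12 tested genes beside or inside the receptor loci, OXA1L and PRSS2 were higher and EPDR1, EPHB6, KEL, STARD3NL and TOX4 lower (median −0.12). TOX4, near the alpha locus, stood at 111 ± 9.61 and 88.8 ± 5.75 CPM, a log2 change of −0.33 (± 0.06 SE). From 1 to 6 h in WT, 5 receptor chains rose and 3 fell (CD3E, PTCRA and TRAC), and 8 recombination genes rose and 4 fell, where 26.5% of all genes rose and 26.1% fell. In CD47- cells, 6 receptor chains rose and 2 fell (PTCRA and TRAC), and 5 recombination genes rose and 4 fell, where 25.9% of all genes rose and 27.2% fell.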

How the data were processed

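Poly(A) RNA of 20 libraries was read as paired reads of 125 bases. Per the authors' methods, reads were trimmed with cutadapt 1.18, aligned to hg38 (GRCh38) with STAR 2.4.2a and quantified with RSEM 1.3.3 on GENCODE annotation, which gave the deposited expected counts per gene. RSEM shares reads among similar segments in proportion, and joined V-J-C reads must align across a deletion that the reference does not hold, so counts of V segments may be too low. The strand setting is not given in the sources used here. The file also holds 2 columns of no sample of the series, which were not used, and the isoform table was not used because each segment has 1 isoform.

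Expected counts were rounded and tested with edgeR 4.0.16 (R 4.3.3), in quasi-likelihood fits with TMM scaling, after filterByExpr by line (minimum count 10, minimum total 15), with Benjamini-Hochberg adjustment over the genes kept and a threshold of 0.05. The lines were compared over all 20 libraries. Time and activation were fitted in 1 model with an intercept, activation, 3 h and 6 h for each line, which pools libraries with and without TSP1. CPM are counts over TMM-scaled totals. Alternatives were DESeq2 1.42.0, limma 3.58.1 (voom after quantile normalization), scaling by upper quartiles, no filter, 1 CPM in every library, a term for each treatment, subsets of pairs, a replicate block and each library left out. Libraries of the same treatment and time in the 2 lines deviated together (r = 0.126 to 0.602 in 10 of 10 pairs), which pairs them by design. Positions are those of GENCODE v44 on GRCh38, and sequences were read from that genome. Fits were tested on simulated data. The segments and gene lists were chosen with earlier results of these data known. Segments named are the 6 of each locus with most counts in a line, those called between lines, 3 of the smallest p in every further contrast, and the 5 genes most like each of the 2 leading segments. Other segments, such as the near copy TRBV12-4, the orphons and those with no count in CD47- cells, were named after their values were seen. Promoters and proteins of these segments were not used here, and 1 gene of the marker lists is not reported here.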

Additional observations from a re-analysis of the deposited data

Results flagged for a closer look

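The change of TRBV12-3 from 1 to 6 h differed between the lines by 0.55 on the log2 scale (edgeR adjusted p = 0.018), rising in CD47- cells by 0.64 and changing by 0.10 in WT. The change of TRBV7-2 differed by −2.18 (edgeR adjusted p = 5.39e-04), up in WT and down in CD47- cells. Both differences were tested as interaction terms. TRBV7-3 in the WT library with CD3_CD28 at 1 h stood at 1.19 CPM, far above the other 9 WT libraries, whose highest was 0.601 CPM. It was the 1 library that stood out by Dixon's test among 22 groups of 10 libraries (11 segments in each line), where about 1 in 20 groups is marked by chance.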

How the results depend on the processing

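The number of segments lower in CD47- cells, 7 with TRAV16 among them, was the same with DESeq2, limma voom, upper-quartile factors and the replicate block of matched pairs of treatment and time point, in which 7 were lower and 0 higher, so that pairing changed no call between the lines. Without the filter on low counts 16 were lower, since segments of few counts were then tested. Among the 16 are TRAV12-2, TRAV12-3 and TRAV9-2, with no count in CD47- cells, and TRBV29-1 and TRGV1, with 1 count each there. Those segments met the minimum of 10 counts only or mostly through WT. No share of all genes is given here for that fit, so no difference between the lines is read from this number. Requiring 1 CPM in every library left 2 lower, as most segments were no longer tested. Pairs without activation alone gave 3 lower. Requiring 1 CPM in every library left 2 segments called from 1 to 6 h in WT, 1 in CD47- cells, 1 from 1 to 3 h in WT, 0 in CD47- cells and 1 for the difference between the lines over 6 h. From 1 to 3 h in WT, limma voom and the fit without the filter each called 1. For activation in WT, DESeq2 called 2, limma voom 1 and the fit without the filter 1, and that fit called 1 segment for the difference between the lines in activation. The cause of these shifts was not tested. With each library left out in turn, the number called was 1 to 3 from 1 to 3 h in WT, 0 to 1 for activation in WT and 1 to 2 for the difference between the lines over 6 h. Directions turned for TRBV28 between the lines in activated pairs alone (0.032), for TRGV8 there (−0.13), and for TRBV7-3 in pairs without activation (0.15). None of the 3 was called. The difference of TRBV28 ran from −0.11 to 0.014 with single libraries left out. TRGV3 and TRGV8 had 8 to 62.0 counts in a library, and no alternative varied the depth.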
